A study of Mus musculus with 9 samples.

Results

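Aggregates made of luminal cells alone were set against aggregates made of basal cells alone, across all genes of the deposited count table. The comparison used the 3 libraries whose titles name luminal aggregates and the 3 whose titles name basal aggregates, which are 6 of the 9 libraries of the series. The other 3 came from aggregates that mixed both kinds of cell. In the fit they entered the filter on low counts, the scaling of the libraries and the shared estimate of the spread. All cells were wild-type epithelial cells of the mouse mammary gland, separated by flow cytometry. In both groups the aggregates sat in 80% Matrigel, a gel of basement membrane proteins, about 100 µm from heparin sulfate beads of 100 to 150 µm that had been soaked in 10 µL of FGF10 at 100 µg/mL. Time in culture is 56 h in the treatment label and 55 h in the titles. Both groups therefore carried the same genotype, gel and FGF10, and aggregates without FGF10 were not analysed here. The labels name neither the surface markers of the sort nor the age of the animals, and nothing in them tells if the 3 libraries per group had their own animals or cultures. The p-values therefore measure the spread between these libraries only, which may be technical.

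The mammary duct is a bilayer. Luminal cells face the lumen, are joined by tight junctions, and include progenitors, cells that sense oestrogen and progesterone, and in lactation the cells that make milk. Basal or myoepithelial cells lie on the basement membrane, contract like smooth muscle under oxytocin, and make much of the laminin and collagen that the epithelium rests on. FGF10 comes from the stroma of the gland, binds an epithelial form of FGFR2 and acts through the ERK kinases on growth and branching.

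The 6 libraries held 15585324 to 19096721 counts, and 3 counts in a library corresponded to 0.152 to 0.187 CPM, a count divided by the size of its library. Every CPM below is normalised by TMM, a trimmed mean of log ratios between libraries. Reads carried no molecular identifiers, so limits set by 3 counts cover counting error only. The prefixes of the column names put basal 1, basal 3 and luminal 1 in a shared code series, luminal 2 and 3 in another, and basal 2 with the mixed libraries. What the codes stand for is not stated. Basal 2 stood apart from its group, with r = 0.927 and 0.936 to basal 1 and 3 across genes, while those were at r = 0.986 to each other. To the mixed libraries basal 2 was at r = 0.903 to 0.926, and basal 1 and 3 were at r = 0.856 to 0.899. The luminal libraries were at r = 0.966 to 0.970 to each other. Principal component 1, with 69.2% of the variance of the 6 libraries, separated luminal from basal, and component 2, with 17.4%, set basal 2 apart from basal 1 and 3. Basal 2 held transcripts that basal 1 and 3 nearly lacked, such as Mucl1 at 264 CPM and Scgb2b26 at 87.1 CPM. Both were at 0.0507 CPM or less in the other 5 luminal and basal libraries. It was low in the nuclear noncoding RNAs Neat1, at 2705, 116 and 1968 CPM in basal 1, 2 and 3, and Malat1, at 1252, 288 and 1154 CPM. Adding the code series to the fit as a term makes it rest on luminal 1 against basal 1 and 3, and its values are given where a call ended in it.

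**Figure D1:**
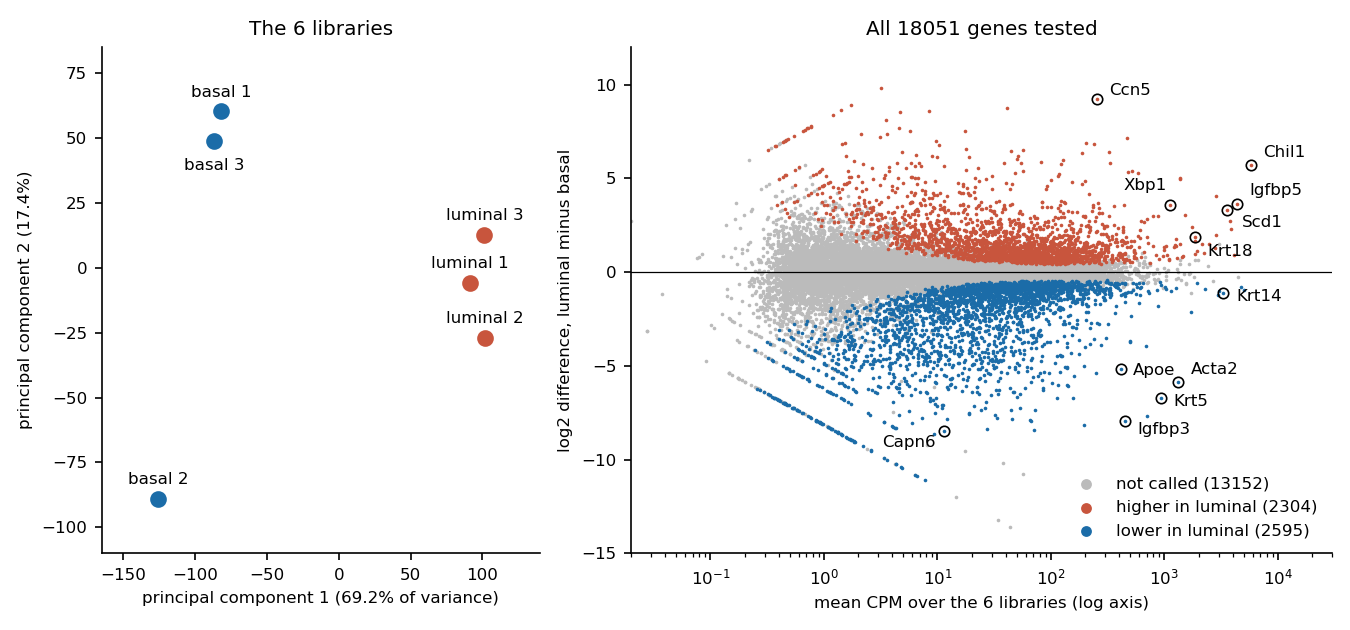
Left, the 6 libraries on the first 2 principal components of log2 CPM, where the luminal libraries lie on the right and basal 2 lies below basal 1 and 3. Right, the log2 difference of each of the 18051 genes tested against its mean CPM (log axis), with the 2304 genes higher and the 2595 lower in luminal aggregates coloured and 12 genes of the text circled.

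The labelled cell kinds were checked against marker genes. Of 14 basal markers 12 were lower in luminal aggregates and 2 were higher, and of 10 luminal markers 9 were higher and none was lower. The summed level of the basal list nevertheless overlapped, at 11975 to 13347 CPM in basal and 9149 to 13160.1 CPM in luminal libraries. Igfbp5 was the largest luminal term in it. That gene, a secreted binding protein of insulin-like growth factors, stood at 702, 611 and 616 CPM in basal 1, 2 and 3 and 9508, 7778 and 6922 CPM in luminal 1, 2 and 3. The luminal list summed to 4273 to 4597 CPM in basal and 8756 to 12104 CPM in luminal libraries. Luminal progenitor markers were higher in 7 of 8 genes, from sums of 981 to 1215 CPM in basal to 6252 to 8479 CPM in luminal libraries. Hormone-sensing markers were higher in 6 and lower in 1 of 8, from 369 to 492 CPM to 1412 to 2465 CPM. In bulk RNA, fewer cells of a type and less RNA per cell cannot be told apart.

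Markers of cells that a sort should remove were low, with some exceptions. The fibroblast list summed to 120 to 153 CPM in basal and 6.77 to 11.01 CPM in luminal libraries, and most of the basal sum came from Fbln1, at 90.5, 131 and 95.9 CPM in basal 1, 2 and 3 and 0.648, 0.237 and 1.18 CPM in luminal 1, 2 and 3. Lum stood at 0, 0.441 and 0 CPM and Dpt at 0.101, 0 and 0.0575 CPM in basal 1, 2 and 3. The levels of Pdgfra, Col1a1, Col1a2, Col3a1 and Dcn, also in the list, are not described here. Of the 6 fibroblast genes tested 3 were lower in luminal aggregates. In 5 of the 6 luminal lay below basal without overlap, beside 23.4% of all genes. The macrophage list summed to 21.2 to 53.7 CPM in luminal libraries, mostly from the lysosomal gene Cd68, at 24.8, 20.9 and 50.2 CPM, while the pan-macrophage and leukocyte genes Adgre1 and Ptprc stayed at or below 0.871 CPM in all 6 libraries. In basal 2 alone, Lyz2 stood at 15.4 CPM, Cd74 at 27.3 CPM and the globin gene Hbb-bs at 8.82 CPM, and the calls of these 3 genes as lower in luminal aggregates ended without that library. Endothelial, pericyte and adipocyte lists summed to at most 12.5 CPM in any library, with the defining endothelial genes Cdh5, Kdr, Emcn and Cldn5 at or below 0.373 CPM and the pericyte gene Abcc9 at 0 counts. The Schwann and neural list summed to 44.1 to 53.2 CPM in basal and 74.3 to 84.0 CPM in luminal libraries. The part of these other cells in the results was not tested.

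**Figure D2:**
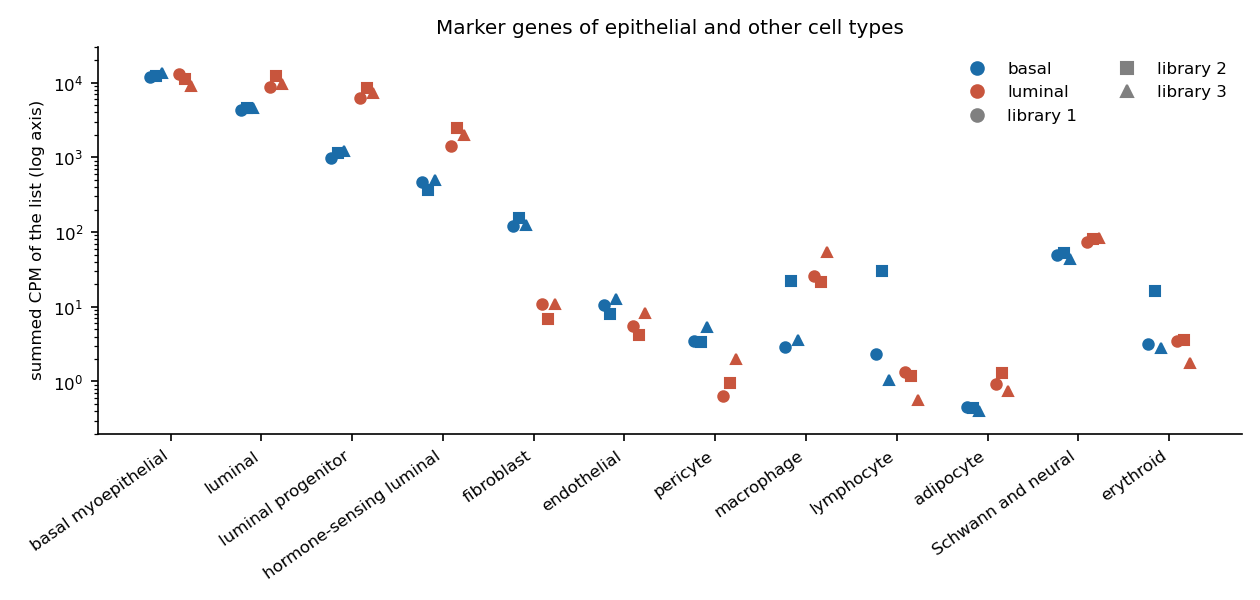
Summed CPM (log axis) of each list of marker genes in the 6 libraries, as circles, squares and triangles for libraries 1, 2 and 3. The basal list overlapped between groups, the other 3 epithelial lists were higher in every luminal library, the fibroblast list was higher in every basal library, and the lymphocyte and erythroid lists were raised in basal 2 alone.

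Of 18051 genes tested, 2304 (12.8%) were higher in luminal aggregates and 2595 (14.4%) were lower, 27.1% in all, at an adjusted p under 0.05 in edgeR's quasi-likelihood test. These shares are the background for every list below. Where a list is said to have no gene higher or none lower in the pooled fit, none was found in that direction by DESeq2 or limma-voom or at an unadjusted p under 0.05 either, with the nuclear respiratory genes as the exception. The calls that went down were the larger ones. Their median log2 difference was -1.75 against 1.30 for the genes that were higher, 555 of them were at least 16-fold lower, and 176 genes were at least 16-fold higher. A log2 difference is luminal minus basal, given with its standard error, so that a negative value is a gene lower in luminal aggregates. The median over all genes tested was -0.02. Groups did not overlap in 46.6% of all genes, with luminal above in 23.2% and below in 23.4%. With libraries scaled by their size alone the median of all genes moved to -0.17 and the split to 1750 higher and 3249 lower, so that higher genes were 35.01% and not 47.03% of the calls. With the code series as a term 1280 genes were called higher, 1191 of them also so in the pooled fit, and 1227 were called lower, 1195 of them also so in that fit.

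The most abundant transcripts differed between the 2 kinds of aggregate. Abundance is ranked in TPM, which are counts per kilobase of exon scaled to the same total in each library, without TMM. Wfdc18, a small secreted protein with a WAP domain, led the luminal aggregates at 13009 ± 4287 TPM (mean ± SD, n = 3). It was followed by the chitinase-like secreted protein gene Chil1 at 10473 ± 3055 TPM and Ly6d, which encodes a small surface protein, at 6802 ± 1604 TPM. Basal aggregates were led by the mitochondrial transcript mt-Nd1 at 10944 ± 1188 TPM. Their most abundant nuclear protein-coding genes were Krt14 at 6723 ± 1346 TPM, the protease inhibitor gene Slpi at 5689 ± 2338 TPM and the interferon-inducible membrane protein gene Ifitm3 at 4741 ± 738 TPM. Chil1 stood at 273, 109.8 and 269 CPM in basal 1, 2 and 3 and 12825, 8602 and 12573 CPM in luminal 1, 2 and 3. Its groups were far apart, with a log2 difference of 5.71 ± 0.38 (adjusted p = 9.4e-07). Ifitm3 stood at 864, 1713 and 1269 CPM in basal 1, 2 and 3 and 58.3, 105 and 88.9 CPM in luminal 1, 2 and 3, high in all 3 basal libraries and low in all 3 luminal ones (-3.93 ± 0.32).

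Several abundant genes had wide gaps between the groups. Lrg1, a secreted glycoprotein of the acute-phase response (mm39 chromosome 17, 56426678 to 56429001), stood at 8.57, 5.62 and 5.86 CPM in basal 1, 2 and 3 and 918, 1008 and 879.7 CPM in luminal 1, 2 and 3. No luminal library came near a basal one, and the log2 difference was 7.12 ± 0.24 (adjusted p = 2.6e-08). Clic6, a chloride intracellular channel family gene, stood at 8.32, 5.73 and 8.62 CPM in basal 1, 2 and 3 and 708, 502 and 732 CPM in luminal 1, 2 and 3 (6.42 ± 0.27). The calcium sensor gene Ncald stood at 5.12, 4.02 and 4.71 CPM in basal 1, 2 and 3 and 389, 300.5 and 428 CPM in luminal 1, 2 and 3 (6.33 ± 0.24). Bglap3, an osteocalcin-related gene, Chrdl2, a secreted BMP antagonist, and Cck, the peptide hormone cholecystokinin, were higher by 6.83 ± 0.43, 6.43 ± 0.35 and 6.17 ± 0.60. In the other direction, Capn6, a calpain without protease activity (chromosome X, 142585227 to 142610410), stood at 26.4, 21.2 and 21.5 CPM in basal 1, 2 and 3 and 0.0540, 0.0593 and 0.0622 CPM in luminal 1, 2 and 3. It was near the limit of detection in all luminal libraries (-8.46 ± 0.89, adjusted p = 2.7e-05). Pi15, a secreted peptidase inhibitor, and Dpysl3, a cytoskeletal protein of migrating neurons, differed by -7.84 ± 0.93 and -7.89 ± 0.53.

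A set of genes was seen in only 1 kind of aggregate at this depth. Of the genes called lower, 81 were at 0 counts in all 3 luminal libraries, and 18 of the genes called higher were at 0 counts in all 3 basal libraries. Upk3a, a uroplakin of the urothelial surface, stood at 16.3, 11.6 and 18.3 CPM in basal 1, 2 and 3 and had 0 counts in luminal libraries, so that it was lower by at least 6.46 on the log2 scale against a level of 3 counts per library. For Sobp, at 11.5, 14.9 and 11.96 CPM, and for the hair follicle keratin gene Krt71, at 8.62, 9.53 and 11.04 CPM, the corresponding bounds were 6.18 and 5.79. In the other direction the sialyltransferase gene St6galnac3 stood at 6.31, 3.15 and 0.871 CPM in luminal 1, 2 and 3 and at 0 counts in basal libraries, a difference of at least 4.40. With 0 counts, any level up to that of 3 counts remains possible.

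Keratins separated the groups only in part. All 7 keratins of basal and stratified epithelium were lower in luminal aggregates (median -2.17), and of 6 simple epithelial keratins 4 were higher and 1 was lower, with 2 higher when the code series was a term. Krt5 stood at 1787, 1630.3 and 2109 CPM in basal 1, 2 and 3 and 23.2, 12.996 and 16.8 CPM in luminal 1, 2 and 3. Krt14, its usual partner, stood at 4201, 4472 and 4884 CPM in basal 1, 2 and 3 and 2502, 2554 and 1285 CPM in luminal 1, 2 and 3, so that luminal aggregates kept a high level of the partner alone. The difference of Krt14 was -1.10 ± 0.25 (adjusted p = 0.0066) and its call ended with the code series as a term (-0.86, adjusted p = 0.18). Krt18 stood at 726, 795 and 848 CPM in basal 1, 2 and 3 and 2133, 3722 and 2846 CPM in luminal 1, 2 and 3 (1.88 ± 0.22), higher in every luminal library. Its partner Krt8 also passed (0.75 ± 0.19) but not with the code series as a term (0.35, adjusted p = 0.33). Krt23, a simple keratin, went the other way from the rest of its group, at 82.5, 75.4 and 82.2 CPM in basal 1, 2 and 3 and 13.2, 17.7 and 16.7 CPM in luminal 1, 2 and 3 (-2.33 ± 0.30).

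Transcription factors of the 2 lineages followed the labels with exceptions. Of 11 basal factors 6 were lower in luminal aggregates and 1 was higher. Snai2, a zinc finger repressor of epithelial genes, stood at 92.3, 103 and 78.4 CPM in basal 1, 2 and 3 and 1.62, 0 and 1.56 CPM in luminal 1, 2 and 3. It was all but absent from luminal libraries (-6.41 ± 0.63, adjusted p = 1.8e-05). The homeobox factor gene Irx4 differed by -3.85 ± 0.77. Sox10, a factor of neural crest and mammary progenitor cells listed as basal, was the exception. It stood at 380.3, 334 and 364 CPM in basal 1, 2 and 3 and 597, 477 and 588 CPM in luminal 1, 2 and 3, with every luminal library above every basal one (0.63 ± 0.16, adjusted p = 0.012), though the call ended with scaling by library size (0.48, adjusted p = 0.055) and without luminal 1 (0.57, adjusted p = 0.054). Of 20 luminal factors 11 were higher and 2 lower (4 lower in DESeq2 and with scaling by library size). Elf5, the ETS factor of alveolar progenitors, stood at 22.6, 29.7 and 25.3 CPM in basal 1, 2 and 3 and 166, 150.3 and 131 CPM in luminal 1, 2 and 3 (2.53 ± 0.17, adjusted p = 1.2e-06). Gata3, a zinc finger factor that luminal cells need, stood at 129, 168 and 129 CPM in basal 1, 2 and 3 and 385, 345 and 339.6 CPM in luminal 1, 2 and 3 (1.33 ± 0.17). Esr1, the oestrogen receptor, and Stat5a, which carries the prolactin signal, were higher by 2.33 ± 0.32 and 2.32 ± 0.30. Foxa1, a partner of the oestrogen receptor, stood at 93.5, 74.6 and 64.6 CPM in basal 1, 2 and 3 and 59.1, 95.8 and 106 CPM in luminal 1, 2 and 3, with overlapping groups (0.17 ± 0.22, adjusted p = 0.64). Myb, listed as luminal, was lower in luminal aggregates, at 107, 101 and 98.1 CPM in basal 1, 2 and 3 and 13.1, 26.8 and 33.8 CPM in luminal 1, 2 and 3 (-2.06 ± 0.31).

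Contractile genes of smooth muscle were lower in luminal aggregates in 17 of 24 tested and higher in 1 (median -1.98). All 9 actin and thin filament genes were lower. Acta2, smooth muscle actin, stood at 2384, 2693 and 2736 CPM in basal 1, 2 and 3 and 69.3, 50.1 and 14.6 CPM in luminal 1, 2 and 3. Luminal libraries kept a low level that was smallest in luminal 3 (-5.86 ± 0.49). Actg2, the enteric smooth muscle actin, and Cnn1, calponin, differed by -6.70 ± 0.39 and -6.17 ± 0.56. Among myosin genes Mylk, the kinase that starts smooth muscle contraction, stood at 114, 157 and 130.4 CPM in basal 1, 2 and 3 and 0.540, 0.653 and 0.436 CPM in luminal 1, 2 and 3 (-7.92 ± 0.26), and Myh11, the smooth muscle heavy chain, differed by -7.35 ± 0.36. The exception was Pdlim3, which encodes a muscle Z-disc protein. It stood at 73.2, 63.3 and 70.7 CPM in basal 1, 2 and 3 and 331, 324 and 452 CPM in luminal 1, 2 and 3, high in all 3 luminal libraries (2.42 ± 0.20, adjusted p = 4.4e-06). The other contractile regulators named by size, Synpo2, Synm and Fhl2, differed by -5.01 ± 0.92, -4.30 ± 0.64 and -1.75 ± 0.24.

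Genes of cell division were lower in luminal aggregates across the whole cycle. All 30 mitosis genes were lower (median -4.66), as were 37 of 40 DNA replication genes (median -2.33), 17 of 20 chromatin genes of dividing cells and all 13 DNA repair genes. None of these 4 groups had a member that was higher. Mitotic transcripts accumulate in G2 phase through promoter elements known as the cell cycle genes homology region, with the letters TTTGAA, and through CCAAT boxes. The 120 bases before the RefSeq start of 4 mitosis genes are shown because all 4 hold both elements. Capitals mark TTTGAA and CCAAT on either strand, so that TTCAAA and ATTGG are the same elements read from the other strand. The build is GRCm38.p6, and the intervals are chr10:69352913-69353032 for Cdk1, chr4:118437344-118437463 for Cdc20 and chr11:99024190-99024309 for Top2a, all on the minus strand, and chr2:164769809-164769928 on the plus strand for Ube2c. Cdk1 is the mitotic kinase, Cdc20 and Ube2c act with the ubiquitin ligase that ends mitosis, and Top2a is the topoisomerase that untangles sister chromatids. Cdk1, Top2a and Ube2c were chosen after their values were seen.
Cdk1: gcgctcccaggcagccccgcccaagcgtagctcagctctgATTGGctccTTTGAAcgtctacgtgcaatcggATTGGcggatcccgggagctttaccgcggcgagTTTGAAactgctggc
Cdc20: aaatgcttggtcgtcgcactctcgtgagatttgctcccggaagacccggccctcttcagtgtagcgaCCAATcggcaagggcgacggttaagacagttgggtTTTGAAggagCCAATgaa
Top2a: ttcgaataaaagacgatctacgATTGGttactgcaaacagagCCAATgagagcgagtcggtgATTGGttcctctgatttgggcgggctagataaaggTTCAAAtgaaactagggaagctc
Ube2c: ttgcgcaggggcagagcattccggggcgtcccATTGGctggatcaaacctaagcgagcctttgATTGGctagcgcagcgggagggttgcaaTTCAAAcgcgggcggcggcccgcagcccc

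TTTGAA was in the window from 250 bases before to 50 after the start in 18 of the 25 mitosis genes that matched the RefSeq table, of 30 listed (72.0%). It was in 20.2% of the 27025 genes in that table. CCAAT was in 18 of the 25 (72.0%) and in 41.1% of all genes in that table. A high share of CCAAT was not particular to mitosis genes. In the same window it was in 13 of 23 matched glutathione synthesis and reduction genes (56.5%). It was also in 8 of 12 matched contractile genes, regulators left out (66.7%). In the 250 bases before the start alone TTTGAA was in 9 of the 25 (36.0%) and in 18.3% of all. Both strands were searched, the motifs do not overlap in letters, and a match describes the sequence and is not a measured site. The 4 genes shown moved together in the counts. Cdk1 stood at 176, 303 and 206 CPM in basal 1, 2 and 3 and 12.03, 9.91 and 9.46 CPM in luminal 1, 2 and 3 (-4.45 ± 0.25), and Cdc20 at 243, 335 and 288 CPM in basal 1, 2 and 3 and 12.95, 15.8 and 14.8 CPM in luminal 1, 2 and 3 (-4.31 ± 0.23). Top2a and Ube2c differed by -5.05 ± 0.24 and -5.11 ± 0.35, and 22.8% of the exon bases of Ube2c were shared with another gene name. Mki67, the proliferation marker with the largest difference in the list, stood at 199.7, 286 and 202 CPM in basal 1, 2 and 3 and 2.91, 2.97 and 4.67 CPM in luminal 1, 2 and 3. All luminal libraries held a low level of each of these genes, and basal 2 was the highest basal library for Cdk1, Cdc20 and Mki67.

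Replication genes varied in how far they were lower. Mcm5, a subunit of the replicative helicase (chromosome 8, 75836197 to 75855067), stood at 217, 262 and 235 CPM in basal 1, 2 and 3 and 11.4, 9.02 and 11.6 CPM in luminal 1, 2 and 3 (-4.48 ± 0.18, adjusted p = 7.8e-08). Another subunit gene, Mcm6, stood at 215, 179 and 225 CPM in basal 1, 2 and 3 and 53.4, 47.7 and 55.5 CPM in luminal 1, 2 and 3, so that luminal aggregates kept more of it (-1.98 ± 0.16). Cdc6 and Cdc45, which load and activate the helicase, differed by -4.19 ± 0.34 and -4.30 ± 0.34, and Rrm2, of the enzyme that makes deoxynucleotides, by -4.49 ± 0.33. Among chromatin genes Uhrf1, which guides maintenance DNA methylation, stood at 137, 120.2 and 132 CPM in basal 1, 2 and 3 and 6.58, 4.39 and 5.17 CPM in luminal 1, 2 and 3 (-4.59 ± 0.21). The repair gene Rad51ap1 differed by -4.36 ± 0.45.

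Of 13 cyclins and kinases of G1 phase 10 were lower and none was higher. Ccnd2, a D-type cyclin that starts the cycle, stood at 216, 448 and 265 CPM in basal 1, 2 and 3 and 5.50, 0.653 and 2.55 CPM in luminal 1, 2 and 3. Basal 2 was the highest library and luminal 2 the lowest (-6.72 ± 0.59). Ccne1, which acts at entry into S phase, differed by -4.28 ± 0.23, and Ccnd1, with 23.4% of exon bases shared with another gene name and so an uncertain value, by -3.70 ± 0.35. Inhibitors of the cycle were divided, with 4 higher and 5 lower of 14 (4 and 3 with the code series as a term). Rb1, the retinoblastoma protein that holds back S phase genes, stood at 28.2, 23.4 and 25.6 CPM in basal 1, 2 and 3 and 233, 186 and 276 CPM in luminal 1, 2 and 3 (3.17 ± 0.21, with 14.9% of exon bases shared). Its relative Rbl1 went down, at 46.5, 44.4 and 44.4 CPM in basal 1, 2 and 3 and 13.01, 11.3 and 11.5 CPM in luminal 1, 2 and 3 (-1.92 ± 0.17). The antiproliferative genes Btg1 and Btg2 were higher by 1.51 ± 0.17 and 1.51 ± 0.23, and the kinase inhibitor gene Cdkn2b differed by -1.85 ± 0.28. Cdkn1a, an inhibitor that p53 is known to induce, stood at 168, 315 and 211 CPM in basal 1, 2 and 3 and 207, 335 and 249 CPM in luminal 1, 2 and 3, with overlapping groups (0.19 ± 0.25, adjusted p = 0.64). Of 17 p53 target genes 2 were higher and 3 lower, among them Phlda3, an inhibitor of AKT, at -1.61 ± 0.19. Both higher ones, Fas and Gdf15, lost their calls with the code series as a term (adjusted p = 0.082 and 0.083).

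**Figure D3:**
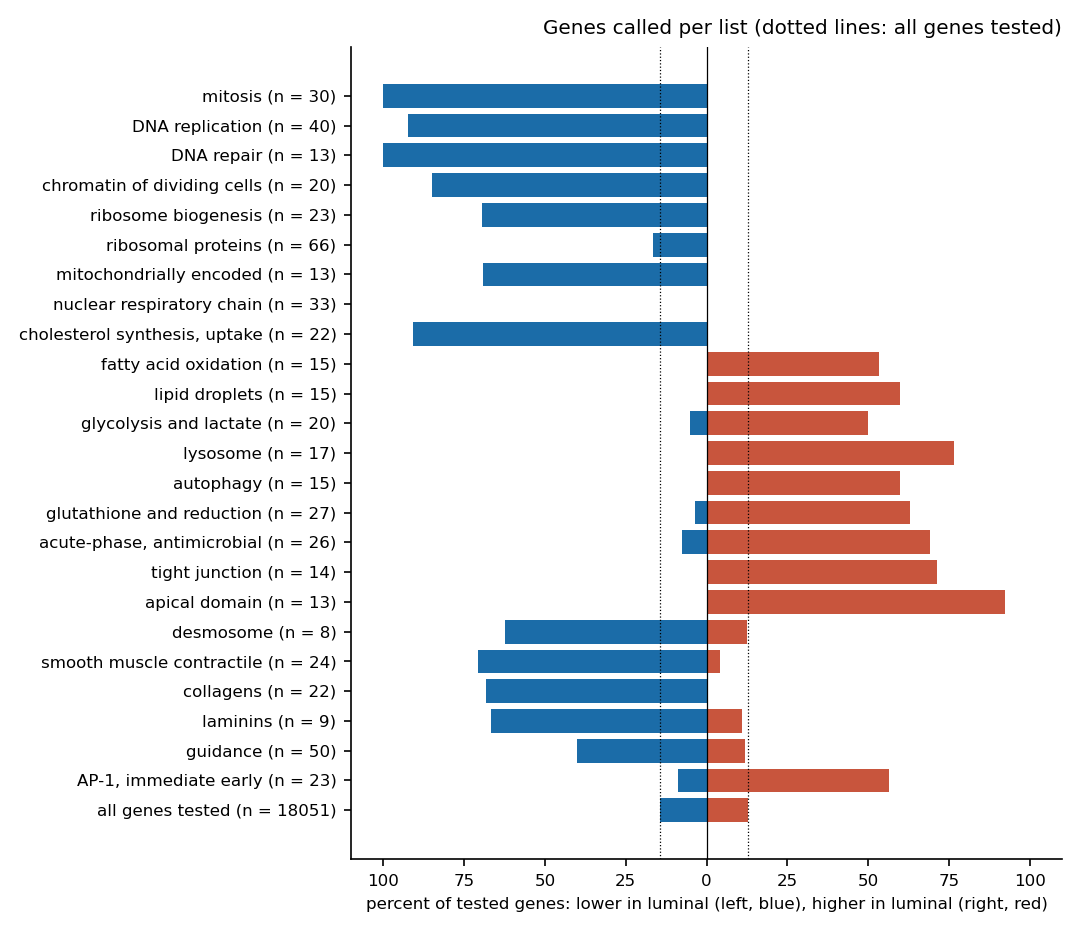
Share of tested members called lower (left, blue) or higher (right, red) in luminal aggregates for 24 lists and for all genes tested, with n the number of members tested. Dotted lines mark the 14.4% and 12.8% of all genes, and the mitosis and repair bars reach 100% on the left while the apical and lysosome bars lie on the right only.

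Genes for making ribosomes were mostly lower, while the share of ribosomal protein genes that was lower was near that of all genes. Of 23 nucleolar and ribosome biogenesis genes 16 were lower in luminal aggregates and none was higher (median -0.87). The count dropped to 6 with the code series as a term, to 9 without luminal 1 and to 10 without luminal 2. Ncl, nucleolin, stood at 495, 756 and 534 CPM in basal 1, 2 and 3 and 268, 266 and 261 CPM in luminal 1, 2 and 3 (-1.17 ± 0.19), and Dkc1, the pseudouridine synthase dyskerin, at 116, 180.4 and 118 CPM in basal 1, 2 and 3 and 46.5, 46.999 and 56.8 CPM in luminal 1, 2 and 3 (-1.46 ± 0.20). For both, basal 2 was the highest library and all luminal libraries were below all basal ones. Of 66 ribosomal protein genes 11 were lower and 0 were higher (median -0.46), beside 14.4% and 12.8% of all genes. Luminal lay below basal without overlap in 19 and above in 0, beside 23.4% and 23.2% of all genes. The lower calls came to 4 without basal 2, 2 without luminal 1 or luminal 3, 30 with scaling by library size and 0 with the code series as a term. Ribosomal protein genes are known for their many pseudogenes, and multiply aligned reads were left out of the counts, so their levels are uncertain.

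Mitochondrial transcripts were a smaller share of the luminal libraries. Genes on the mitochondrial genome took 2.89% to 3.07% of counts in basal and 1.32% to 1.63% in luminal libraries, and 9 of the 13 protein-coding ones were lower (median -0.88, and 5 with the code series as a term). The complex I subunit gene mt-Nd1 stood at 3672, 5424 and 3308 CPM in basal 1, 2 and 3 and 1729.7, 1953 and 1558 CPM in luminal 1, 2 and 3 (-1.24 ± 0.21) and mt-Cytb, cytochrome b, at 4101, 4492 and 3593 CPM in basal 1, 2 and 3 and 2145, 1978 and 1887 CPM in luminal 1, 2 and 3 (-1.02 ± 0.16). In contrast, of the 33 nuclear genes of the same respiratory complexes none was called in either direction (median -0.21) by edgeR in the pooled fit. At an unadjusted p under 0.05 3 were lower and none was higher. Further, 4 were lower in DESeq2 and none in limma-voom, and 5 with scaling by library size. The subunit of ATP synthase with the highest mean, Atp5b, stood at 1816, 2119 and 2110.0 CPM in basal 1, 2 and 3 and 1584, 1718 and 1650.4 CPM in luminal 1, 2 and 3 (-0.29 ± 0.15, adjusted p = 0.2).

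Cholesterol genes differed by direction of flow. Of 22 genes of cholesterol synthesis and uptake 20 were lower and none was higher (median -2.11), and of 6 efflux genes 4 were higher and 1 was lower. Srebf2, the master regulator of the synthesis genes, stood at 247, 254 and 257 CPM in basal 1, 2 and 3 and 101, 119.7 and 115 CPM in luminal 1, 2 and 3 (-1.18 ± 0.15). Idi1, isopentenyl diphosphate isomerase of that pathway, stood at 55.2, 74.5 and 49.6 CPM in basal 1, 2 and 3 and 5.67, 5.40 and 11.6 CPM in luminal 1, 2 and 3 (-2.98 ± 0.31). On the efflux side Abcg1, a sterol exporter, stood at 18.1, 3.58 and 20.01 CPM in basal 1, 2 and 3 and 207, 150.1 and 96.97 CPM in luminal 1, 2 and 3. It was lowest in basal 2 and higher in every luminal library (3.45 ± 0.51). Mylip, a ligase that removes the LDL receptor, was higher by 2.41 ± 0.21. Apoe, the lipoprotein apolipoprotein E, was the efflux gene that was lower, at 806, 753 and 851 CPM in basal 1, 2 and 3 and 28.3, 17.03 and 22.2 CPM in luminal 1, 2 and 3 (-5.16 ± 0.26, adjusted p = 2.2e-07).

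Fatty acid genes were divided by step. Of 15 synthesis genes 4 were higher and 8 lower (3 and 5 with the code series as a term). Scd1, the desaturase that makes oleate, stood at 817, 449.7 and 700.0 CPM in basal 1, 2 and 3 and 8295, 3787 and 7423 CPM in luminal 1, 2 and 3, a gain of 3.31 ± 0.33 in log2. Fads2 and Fads1, which desaturate polyunsaturated fatty acids, went down, Fads2 from 572, 521 and 583 CPM in basal 1, 2 and 3 to 109.7, 60.5 and 77.5 CPM in luminal 1, 2 and 3 (-2.76 ± 0.22) and Fads1 by -2.12 ± 0.27. The NADPH-making malic enzyme gene Me1 was higher by 1.93 ± 0.19. Lipid droplet and triglyceride genes were higher in 9 of 15 and lower in none. Btn1a1, butyrophilin, and Xdh, xanthine oxidoreductase, both coat milk fat globules. Btn1a1 stood at 22.2, 14.9 and 16.96 CPM in basal 1, 2 and 3 and 303, 197 and 232 CPM in luminal 1, 2 and 3 (3.76 ± 0.25), and Xdh differed by 3.57 ± 0.42. Fatty acid oxidation genes and their regulators were higher in 8 of 15, and in 6 with the code series as a term. No oxidation enzyme is described here. Pparg, the nuclear receptor of fat storage, stood at 0.152, 0.220 and 0.345 CPM in basal 1, 2 and 3 and 15.97, 20.1 and 17.6 CPM in luminal 1, 2 and 3. Basal libraries were near the level of 3 counts and luminal ones well above it (6.19 ± 0.53). Angptl4, a secreted inhibitor of lipoprotein lipase, was higher by 2.73 ± 0.37.

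Glycolysis and lactate genes were higher in luminal aggregates in 10 and lower in 1 of 20 (median 0.79). Aldoa, the glycolytic aldolase, stood at 717, 1358 and 883 CPM in basal 1, 2 and 3 and 5459.7, 8194 and 6122 CPM in luminal 1, 2 and 3 (2.74 ± 0.26). Pfkfb3, whose product drives phosphofructokinase, stood at 4.31, 3.75 and 5.29 CPM in basal 1, 2 and 3 and 36.6, 44.4 and 55.3 CPM in luminal 1, 2 and 3 (3.35 ± 0.39). Of the lactate transporters, Slc16a3, which exports lactate, stood at 1.27, 1.43 and 1.90 CPM in basal 1, 2 and 3 and 19.8, 36.7 and 32.4 CPM in luminal 1, 2 and 3 (4.27 ± 0.67), while Slc16a1 was the gene that was lower, at 52.4, 61.998 and 50.3 CPM in basal 1, 2 and 3 and 20.6, 27.8 and 31.7 CPM in luminal 1, 2 and 3 (-1.04 ± 0.19). The groups did not overlap for either transporter. Hypoxia genes were higher in 7 and lower in 3 of 14, but in 3 and 1 with the code series as a term and in 7 and 1 without luminal 1. Adm, the peptide adrenomedullin, was higher by 3.41 ± 0.56, and Bnip3, a mitophagy receptor with 22.3% of exon bases shared, by 2.72 ± 0.22. Epas1, a hypoxia-inducible factor subunit, differed by -1.59 ± 0.26, and its call ended with the code series as a term (adjusted p = 0.051).

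Genes of the secretory pathway and of stress were mixed. Of 18 chaperone and endoplasmic reticulum stress genes 4 were higher and 8 lower, and with the code series as a term 2 and 4. Xbp1, the factor that expands the secretory pathway, stood at 163, 171 and 177 CPM in basal 1, 2 and 3 and 1753, 2017 and 2407 CPM in luminal 1, 2 and 3. Its luminal libraries lay far above its basal ones (3.60 ± 0.18, adjusted p = 2e-07). Dnajb9, a chaperone gene that XBP1 is known to act on, was higher by 1.27 ± 0.22, while the chaperone gene Sdf2l1 differed by -1.32 ± 0.26. Of 17 genes of the integrated stress response 7 were higher and 5 lower, with 8 and 1 in the fit with the code series, 4 and 3 without basal 3, 4 and 5 without luminal 1, and 5 and 3 without basal 1. Nupr1, a small stress-induced nuclear protein, stood at 80.9, 97.2 and 79.6 CPM in basal 1, 2 and 3 and 2612, 3288 and 2002 CPM in luminal 1, 2 and 3 (4.94 ± 0.24, adjusted p = 1.5e-07), and the stress factor gene Atf3 at 9.23, 10.9 and 10.9 CPM in basal 1, 2 and 3 and 61.7, 34.8 and 30.5 CPM in luminal 1, 2 and 3 (2.03 ± 0.33). Psph, the last enzyme of serine synthesis, differed by -1.89 ± 0.25, with 10.4% of exon bases shared. Amino acid transporters were higher in 4 and lower in 4 of 18, and the lower calls came to 2 with the code series as a term. Slc3a2, the heavy chain of several exchangers, was higher by 1.43 ± 0.20. The glutamine transporter gene Slc1a5 and the glutamate transporter gene Slc1a3 differed by -1.86 ± 0.21 and -4.78 ± 0.55.

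Lysosomal genes were higher in 13 of 17 tested and lower in none (median 1.04). Neu1, the lysosomal sialidase, stood at 64.1, 39.7 and 54.97 CPM in basal 1, 2 and 3 and 191, 165 and 243 CPM in luminal 1, 2 and 3 (1.92 ± 0.25). Psap, whose product activates sphingolipid breakdown, stood at 744, 639 and 709 CPM in basal 1, 2 and 3 and 1816, 1478 and 2247 CPM in luminal 1, 2 and 3 (1.41 ± 0.19). Both were above the basal range in every luminal library. Autophagy genes were higher in 9 of 15, and in 5 with the code series as a term. Sqstm1, an autophagy cargo receptor, was higher by 1.39 ± 0.17, with 17.3% of exon bases shared. Among cathepsins and kallikreins 5 of 13 were higher and 1 was lower. Ctsh, cathepsin H, stood at 102, 99.3 and 119.5 CPM in basal 1, 2 and 3 and 563, 742 and 547 CPM in luminal 1, 2 and 3 (2.53 ± 0.18), and Ctsc, the lower gene, differed by -1.13 ± 0.21, a call that ended with the code series as a term (-0.87, adjusted p = 0.11).

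Channel and transporter genes were higher in 12 and lower in 5 of 28. The lower count was 3 with the title number as a replicate block, with the code series as a term, and without basal 1, basal 2 or luminal 3. Scnn1b, a subunit of the epithelial sodium channel, stood at 0.355, 0.165 and 0 CPM in basal 1, 2 and 3 and 20.8, 18.99 and 22.2 CPM in luminal 1, 2 and 3. Basal libraries were at or near the limit of detection (6.80 ± 0.66). Slc5a5, the sodium iodide symporter that brings iodide into milk, stood at 16.9, 2.48 and 12.4 CPM in basal 1, 2 and 3 and 153, 317 and 428 CPM in luminal 1, 2 and 3 (4.82 ± 0.61), and Slc34a2, a phosphate transporter, differed by 4.09 ± 0.82. Trpv6, a calcium channel, went the other way, at 71.9, 37.97 and 80.6 CPM in basal 1, 2 and 3 and 9.93, 4.51 and 3.55 CPM in luminal 1, 2 and 3 (-3.40 ± 0.41), as did the water and glycerol channel gene Aqp3 (-1.82 ± 0.26) and Atp1b3, a sodium pump subunit (-1.51 ± 0.19).

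Antioxidant genes of glutathione synthesis and reduction were higher in luminal aggregates in 17 of 27 and lower in 1 (median 0.77), and in 11 without basal 3. Within the glutathione peroxidases the direction depended on the gene. Gpx3, the secreted form, stood at 101, 51.4 and 88.7 CPM in basal 1, 2 and 3 and 1234, 3909 and 2780.3 CPM in luminal 1, 2 and 3. Gpx2, the gastrointestinal form, stood at 645, 1311 and 795 CPM in basal 1, 2 and 3 and 43.9, 85.2 and 87.1 CPM in luminal 1, 2 and 3. The first was higher in every luminal library (5.04 ± 0.53) and the second in every basal library (-3.67 ± 0.33). Gpx4, which repairs lipid peroxides, was higher by 1.81 ± 0.18, but a pseudogene of it in the table, Gpx4-ps2, held more counts, at 397, 832 and 526 CPM in basal 1, 2 and 3 and 2149.9, 2154 and 1573 CPM in luminal 1, 2 and 3, and reads of the 2 may be split between them. Fth1, the ferritin heavy chain, stood at 2275, 6580.4 and 2539 CPM in basal 1, 2 and 3 and 8019.7, 8083 and 6001 CPM in luminal 1, 2 and 3. Basal 2 overlapped with the luminal libraries, the pooled difference did not pass (0.96 ± 0.35, adjusted p = 0.063), and without basal 2 it did (1.61, adjusted p = 6.7e-05), as in 9 of 17 alternatives in all. The antioxidant response element core TGACNNNGC was in the 300-base window of 8 of the 23 glutathione genes that matched RefSeq, of 27 (34.8%). It was in that of 3781 of the 27025 genes in the RefSeq table. Glutathione transferase and aldehyde genes were divided, 5 higher and 4 lower of 16 (3 and 4 without basal 3, 5 and 2 with the code series as a term), with Gsta3 at 2.19 ± 0.52 and Gsta4 at -1.98 ± 0.33.

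Retinoid genes also divided, 6 higher and 4 lower of 13 (median 0.03), and 5 and 2 with the code series as a term. Only genes of the higher side are described here. Crabp2, which carries retinoic acid to its receptor, stood at 40.8, 38.7 and 45.7 CPM in basal 1, 2 and 3 and 136, 139 and 118 CPM in luminal 1, 2 and 3 (1.65 ± 0.15). Aldh1a3, which makes retinoic acid, was higher by 1.61 ± 0.29, at 256, 126 and 277 CPM in basal 1, 2 and 3 and 555, 814 and 638 CPM in luminal 1, 2 and 3. Basal 2 was the lowest library for Aldh1a3, and the groups did not overlap for either gene.

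Acute-phase and antimicrobial genes were higher in luminal aggregates in 18 of 26 and lower in 2 (median 2.83). Saa1, serum amyloid A, stood at 0.304, 0.882 and 2.59 CPM in basal 1, 2 and 3 and 198, 88.1 and 51.6 CPM in luminal 1, 2 and 3. It varied among luminal libraries but stayed above every basal one (6.50 ± 0.79), and Saa2 was higher as well (6.55 ± 0.94). Reads of these 2 close relatives can be split or lost by the counting, so their levels are uncertain. Slpi, the secretory leukocyte protease inhibitor, was lower, at 1464, 4804 and 2122 CPM in basal 1, 2 and 3 and 632, 806 and 482 CPM in luminal 1, 2 and 3 (-2.13 ± 0.40). Chemokines and cytokines were higher in 8 and lower in 4 of 21, and in 5 and 2 with the code series as a term. Without basal 3, luminal 1 or luminal 3 they came to 7 and 2. Cxcl14, a chemokine of epithelia, stood at 85.3, 114 and 79.6 CPM in basal 1, 2 and 3 and 1.08, 1.66 and 0.498 CPM in luminal 1, 2 and 3 (-6.41 ± 0.35), and Il33, an alarm cytokine, at 153, 144 and 122 CPM in basal 1, 2 and 3 and 7.28, 20.2 and 16.9 CPM in luminal 1, 2 and 3 (-3.24 ± 0.31). Both were higher in every basal library. The inflammatory cytokine genes Tnf and Lif were higher by 2.02 ± 0.36 and 2.05 ± 0.30.

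Interferon response genes were higher in 2 and lower in 2 of 24, a share below that of all genes, with Oasl2 at -1.80 ± 0.40. Without basal 2 the lower calls came to 5. MHC class I presentation genes were higher in 5 of 10, but in 1 with the code series as a term, in 3 with scaling by library size or with the 6 libraries alone, and in 2 without basal 1, luminal 2 or luminal 3. Prostaglandin genes were higher in 5 and lower in 2 of 13, and in 2 and 1 with the code series as a term and without luminal 3. Without basal 1 they came to 3 and 2, and without basal 3 to 2 and 2. The cyclooxygenase genes went opposite ways. Ptgs2, the inducible form, stood at 6.95, 9.75 and 5.46 CPM in basal 1, 2 and 3 and 105, 149.5 and 281 CPM in luminal 1, 2 and 3 (4.59 ± 0.37), and Ptgs1, the constitutive form, at 39.6, 63.98 and 33.6 CPM in basal 1, 2 and 3 and 7.23, 12.4 and 15.9 CPM in luminal 1, 2 and 3 (-1.95 ± 0.33).

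Integrins, the receptors for matrix, changed by subunit. Of 16 tested 6 were higher and 4 lower, and with the code series as a term 5 and 1. Without luminal 1 the counts were 4 and 2. Itgb3, whose product pairs with the alpha v subunit and marks luminal progenitors, stood at 64.7, 49.5 and 43.6 CPM in basal 1, 2 and 3 and 326, 215 and 246 CPM in luminal 1, 2 and 3 (2.32 ± 0.22). Itga8 and Itgb6 were higher by 1.96 ± 0.20 and 2.18 ± 0.31. Itga5, of the fibronectin receptor, stood at 29.3, 25.96 and 30.6 CPM in basal 1, 2 and 3 and 6.10, 7.95 and 6.10 CPM in luminal 1, 2 and 3 (-2.09 ± 0.26). Itgb4, of the hemidesmosome, differed by -0.58 ± 0.15, a call that ended with the code series as a term (adjusted p = 0.068) and without basal 1 (adjusted p = 0.051). Itgb1, the subunit shared by most receptors for laminin and collagen, stood at 416, 319.6 and 356 CPM in basal 1, 2 and 3 and 512, 439.8 and 555 CPM in luminal 1, 2 and 3. Every luminal library was above every basal one, but the difference did not pass in edgeR (0.47 ± 0.17, adjusted p = 0.06), whereas it did in DESeq2 (adjusted p = 0.025), in limma-voom (adjusted p = 0.044) and without basal 1 (adjusted p = 0.036).

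Adhesion between cells differed by the type of junction. Tight junction genes were higher in 10 of 14 and genes of the apical domain in 12 of 13, and none was lower. With the code series as a term the tight junction count was 5. Cldn4, a barrier claudin, stood at 34.2, 28.1 and 27.3 CPM in basal 1, 2 and 3 and 226, 293 and 169 CPM in luminal 1, 2 and 3 (2.94 ± 0.24), and Cgn, the junction adaptor cingulin, at 23.2, 3.86 and 17.6 CPM in basal 1, 2 and 3 and 59.1, 71.8 and 100.0 CPM in luminal 1, 2 and 3 (2.37 ± 0.48). Ceacam1, an apical adhesion receptor, was higher by 2.13 ± 0.18. Desmosome genes were lower in 5 and higher in 1 of 8. Dsp, desmoplakin, which ties desmosomes to keratin, stood at 295, 452 and 296 CPM in basal 1, 2 and 3 and 70.7, 97.1 and 72.4 CPM in luminal 1, 2 and 3 (-2.12 ± 0.21). Dsg3 and Dsc3, desmosomal cadherins of stratified epithelium, differed by -3.35 ± 0.38 and -8.37 ± 0.67. Pkp2, a plakophilin, was the desmosome gene that was higher, at 27.1, 16.5 and 20.5 CPM in basal 1, 2 and 3 and 57.1, 44.5 and 50.5 CPM in luminal 1, 2 and 3 (1.25 ± 0.21), while Pkp1 was lower (-1.13 ± 0.15). Cdh1, E-cadherin, stood at 509.5, 343 and 392 CPM in basal 1, 2 and 3 and 505, 375 and 618 CPM in luminal 1, 2 and 3, with overlapping groups (0.27 ± 0.21). Cdh2, N-cadherin, and Cdh3, P-cadherin, were high in basal libraries only. Cdh2 stood at 40.6, 39.1 and 32.8 CPM in basal 1, 2 and 3 and 0.162, 0.119 and 0.311 CPM in luminal 1, 2 and 3 (-7.53 ± 0.46, adjusted p = 5e-07).

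Focal adhesion genes were lower in 6 and higher in 2 of 16 (3 and 1 with the code series as a term). Tns4, a tensin, stood at 115, 84.3 and 113 CPM in basal 1, 2 and 3 and 5.72, 7.77 and 9.59 CPM in luminal 1, 2 and 3 (-3.76 ± 0.23), while Tln2, a talin, was higher by 1.15 ± 0.20. Genes of actin protrusion were lower in 7 and higher in 4 of 29 (4 and 3 with the code series as a term). Fscn1, which bundles actin in filopodia, differed by -4.53 ± 0.54. Diaph3, a formin, stood at 21.9, 43.9 and 25.7 CPM in basal 1, 2 and 3 and 1.40, 1.54 and 1.49 CPM in luminal 1, 2 and 3 (-4.36 ± 0.37), and Cttn, cortactin, which stabilises branched actin, at 306, 189 and 294 CPM in basal 1, 2 and 3 and 570.1, 467 and 582 CPM in luminal 1, 2 and 3 (1.04 ± 0.20). The groups did not overlap for these 2 genes, in opposite directions.

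Matrix genes were lower in luminal aggregates, with 6 of 9 laminin chains and 15 of 22 collagens (median -2.76). Lama1 stood at 44.2, 48.99 and 32.7 CPM in basal 1, 2 and 3 and 0.378, 0.356 and 0.124 CPM in luminal 1, 2 and 3 (-7.14 ± 0.39), and Lama3, of the laminin that anchors hemidesmosomes, at 148, 114 and 119.7 CPM in basal 1, 2 and 3 and 12.6, 8.60 and 13.3 CPM in luminal 1, 2 and 3 (-3.46 ± 0.24). Col18a1, a basement membrane collagen, stood at 616, 509 and 574 CPM in basal 1, 2 and 3 and 42.5, 42.5 and 63.2 CPM in luminal 1, 2 and 3 (-3.52 ± 0.20). Each was higher in every basal library. Col5a2 and Col6a1, which are also fibroblast collagens, were lower, differing by -7.55 ± 0.51 and -6.41 ± 0.81, at 41.4, 33.9 and 38.1 CPM and 15.9, 17.7 and 13.7 CPM in basal 1, 2 and 3, beside the fibroblast list sums given above. The laminin gene that was higher, Lama5, lost its call with the code series as a term (0.67 ± 0.15, then 0.51, adjusted p = 0.11).

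Of metalloprotease genes 7 of 16 were lower and 2 higher, and none was higher with the code series as a term or without luminal 3. Mmp2, a gelatinase, stood at 69.03, 39.2 and 51.7 CPM in basal 1, 2 and 3 and 3.40, 1.78 and 1.74 CPM in luminal 1, 2 and 3 (-4.52 ± 0.51). Mmp14, the membrane protease that activates it, stood at 334, 394 and 312 CPM in basal 1, 2 and 3 and 297, 267 and 345 CPM in luminal 1, 2 and 3, with overlapping groups (-0.20 ± 0.17, adjusted p = 0.44). Timp2, an inhibitor that also takes part in that activation, stood at 182, 159 and 165 CPM in basal 1, 2 and 3 and 607, 541 and 583 CPM in luminal 1, 2 and 3 (1.77 ± 0.15). Serpine2, an inhibitor of thrombin and plasminogen activators, stood at 286, 306 and 299 CPM in basal 1, 2 and 3 and 43.3, 44.9 and 41.4 CPM in luminal 1, 2 and 3 (-2.78 ± 0.23), and Serpinf1, which blocks vessel growth, at 52.2, 95.6 and 51.1 CPM in basal 1, 2 and 3 and 0.432, 0.415 and 0 CPM in luminal 1, 2 and 3 (-7.80 ± 0.57). Luminal libraries were the higher ones for Timp2 and the lower ones for both serpins.

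Guidance molecules first known from axons were lower in 20 and higher in 6 of 50 (median -0.64). Sema6d, a transmembrane semaphorin, stood at 88.9, 75.2 and 77.7 CPM in basal 1, 2 and 3 and 2.70, 0.890 and 2.18 CPM in luminal 1, 2 and 3 (-5.38 ± 0.38), and Sema5a and Sema3b differed by -5.07 ± 0.39 and -3.99 ± 0.51. Plxnd1, a plexin receptor of semaphorins, was lower, differing by -3.20 ± 0.47. Reln, the secreted glycoprotein reelin, stood at 57.2, 53.01 and 45.9 CPM in basal 1, 2 and 3 and 0.162, 0.119 and 0.747 CPM in luminal 1, 2 and 3 (-7.25 ± 1.12), and the ligand gene Slit2 at 17.9, 7.27 and 18.1 CPM in basal 1, 2 and 3 and 2.05, 2.91 and 3.30 CPM in luminal 1, 2 and 3 (-2.39 ± 0.44). Both were low in all luminal libraries. Both netrin genes of the list were higher, in a group of netrin, Slit and Reelin genes with 2 higher and 6 lower of 11. Ntn4, a netrin of basement membranes, stood at 41.3, 30.2 and 36.3 CPM in basal 1, 2 and 3 and 294, 150.1 and 179 CPM in luminal 1, 2 and 3 (2.53 ± 0.26), and Ntn1 at 20.1, 22.2 and 22.8 CPM in basal 1, 2 and 3 and 148, 117 and 99.7 CPM in luminal 1, 2 and 3 (2.48 ± 0.19). Of 7 ephrins 1 was higher and 3 were lower (1 and 1 with the code series as a term), and of 9 Eph receptors 1 was higher and 2 were lower. The ephrin gene Efna1 and its receptor Epha2 were higher by 1.23 ± 0.22 and 1.02 ± 0.21, and Ephb1 and Ephb2 lower, differing by -5.73 ± 0.69 and -3.36 ± 0.52.

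Growth factor ligands and receptors of the 2 kinds of aggregate differed within families. In the EGF family 6 were higher and 2 lower of 14, with 2 higher when the code series was a term. Nrg1, a neuregulin that binds ERBB3 and ERBB4, stood at 75.9, 78.3 and 66.6 CPM in basal 1, 2 and 3 and 2.16, 4.21 and 5.04 CPM in luminal 1, 2 and 3 (-4.28 ± 0.60), and Hbegf, a ligand of the EGF receptor, at 1.12, 0.827 and 1.32 CPM in basal 1, 2 and 3 and 11.4, 17.8 and 10.5 CPM in luminal 1, 2 and 3 (3.60 ± 0.40). Areg, amphiregulin, which oestrogen is known to induce in the gland, stood at 49.9, 48.2 and 46.6 CPM in basal 1, 2 and 3 and 116, 237 and 133 CPM in luminal 1, 2 and 3 (1.75 ± 0.28). Egfr, the receptor itself, stood at 49.8, 59.6 and 56.5 CPM in basal 1, 2 and 3 and 40.8, 51.2 and 46.9 CPM in luminal 1, 2 and 3, with overlapping groups (-0.26 ± 0.17, adjusted p = 0.31).

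Of 16 genes that FGF and ERK signals are known to induce 3 were higher and 5 lower, with 1 and 4 when the code series was a term and 1 and 5 without luminal 3. The ETS factor genes Etv4 and Etv5 were lower, Etv4 at 64.9, 75.1 and 67.9 CPM in basal 1, 2 and 3 and 4.32, 7.83 and 5.35 CPM in luminal 1, 2 and 3 (-3.57 ± 0.26) and Etv5 at 226, 271 and 169 CPM in basal 1, 2 and 3 and 31.9, 31.6 and 47.7 CPM in luminal 1, 2 and 3 (-2.58 ± 0.26). Dusp6, a phosphatase of ERK, stood at 153, 164 and 131 CPM in basal 1, 2 and 3 and 52.6, 50.4 and 67.7 CPM in luminal 1, 2 and 3 (-1.39 ± 0.17). All 3 were higher in every basal library, and the 3 genes of the list that were higher in luminal aggregates are not described here. Of 4 FGF receptor genes tested 1 was higher in luminal aggregates, and with the code series as a term 0 were higher and 1 was lower. Fgfr2, the receptor that FGF10 binds, stood at 114, 56.7 and 84.8 CPM in basal 1, 2 and 3 and 29.1, 31.3 and 68.8 CPM in luminal 1, 2 and 3. Luminal 3 overlapped with the basal range and the difference did not pass (-0.98 ± 0.34, adjusted p = 0.053), and without luminal 3 (-1.50, adjusted p = 0.005) or basal 2 (-1.21, adjusted p = 0.025) it did, as in 9 of 17 alternatives in all. Fgf1, a ligand of all FGF receptors, was lower, differing by -2.31 ± 0.52, a call that ended with the code series as a term (adjusted p = 0.051).

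Of the other ligands 9 were higher and 4 lower of 26, with 4 and 3 when the code series was a term and 2 lower without basal 2, basal 3, luminal 1 or luminal 3. Wnt10a, a Wnt ligand, stood at 23.9, 29.5 and 30.9 CPM in basal 1, 2 and 3 and 0.378, 0.475 and 0.311 CPM in luminal 1, 2 and 3 (-6.15 ± 0.33), while Wnt7b stood at 35.2, 16.8 and 28.3 CPM in basal 1, 2 and 3 and 145, 222 and 173 CPM in luminal 1, 2 and 3 (2.75 ± 0.27) and Wnt5b was higher by 2.02 ± 0.26. Bmp7, a bone morphogenetic protein, stood at 98.5, 102 and 114 CPM in basal 1, 2 and 3 and 1.51, 0.949 and 0.934 CPM in luminal 1, 2 and 3 (-6.51 ± 0.30, adjusted p = 1.2e-07). Receptor genes other than those of FGF and EGF were higher in 8 and lower in 3 of 23. Prlr, the prolactin receptor, stood at 80.4, 56.9 and 78.1 CPM in basal 1, 2 and 3 and 429, 698 and 590.2 CPM in luminal 1, 2 and 3 (2.99 ± 0.22). Kit, the stem cell factor receptor of luminal progenitors, and Met, the receptor of hepatocyte growth factor, were higher by 2.49 ± 0.28 and 1.53 ± 0.21. Tgfbr3, a coreceptor for TGF-beta, stood at 78.2, 54.5 and 57.5 CPM in basal 1, 2 and 3 and 5.40, 5.52 and 12.4 CPM in luminal 1, 2 and 3 (-3.03 ± 0.41), higher in every basal library. IGF binding proteins and their proteases split 3 up and 5 down of 9. Beside Igfbp5 (3.65 ± 0.20), Igfbp3 stood at 870.2, 988 and 850.2 CPM in basal 1, 2 and 3 and 6.10, 3.50 and 1.18 CPM in luminal 1, 2 and 3 (-7.96 ± 0.51) and Igfbp2 at 225, 305 and 287 CPM in basal 1, 2 and 3 and 8.63, 2.43 and 1.56 CPM in luminal 1, 2 and 3 (-5.999 ± 0.52). Htra1, a protease that cuts IGF binding proteins, was higher by 2.18 ± 0.30.

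**Figure D4:**
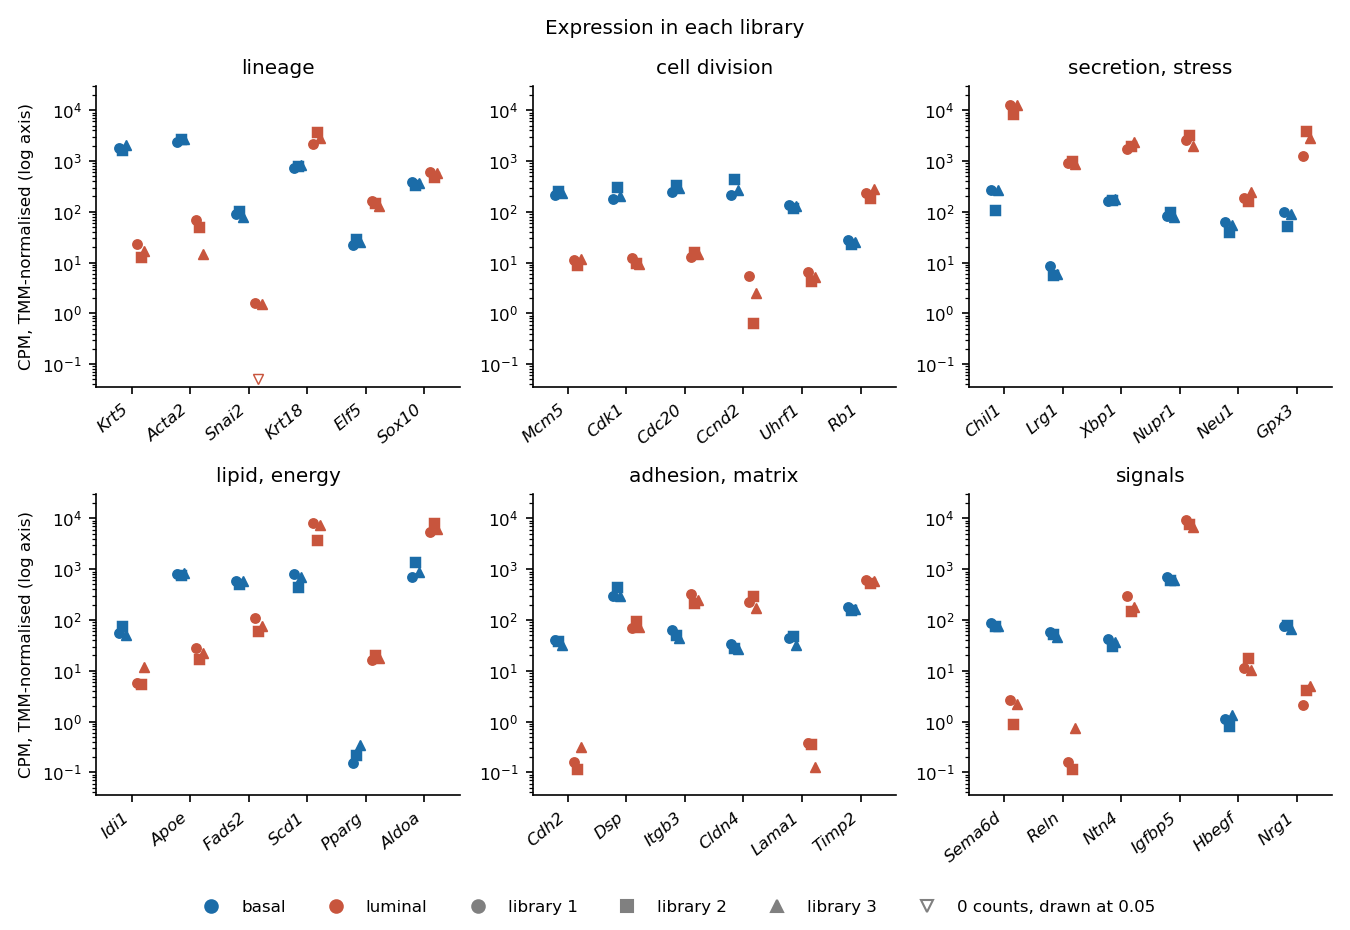
CPM (log axis) of 36 genes of the text in each of the 6 libraries, basal in blue and luminal in red, with circles, squares and triangles for libraries 1, 2 and 3 and an open triangle for 0 counts. The groups of each gene drawn are apart, by more than 100-fold for Lrg1 and Cdh2 and by less than 2-fold for Sox10.

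YAP target and CCN genes were higher in 9 and lower in 4 of 18. Ccn5, a secreted matricellular protein, stood at 0.812, 0.496 and 1.21 CPM in basal 1, 2 and 3 and 567, 568 and 384 CPM in luminal 1, 2 and 3, the largest difference toward luminal aggregates among abundant genes (9.23 ± 0.34, adjusted p = 3.8e-08). F3, tissue factor, was higher by 3.67 ± 0.32, and Axl, a receptor tyrosine kinase, lower, at 132, 109 and 143 CPM in basal 1, 2 and 3 and 10.4, 10.9 and 13.4 CPM in luminal 1, 2 and 3 (-3.47 ± 0.19). Tead1, a transcription factor through which YAP acts, stood at 76.2, 98.5 and 72.6 CPM in basal 1, 2 and 3 and 19.5, 22.2 and 19.8 CPM in luminal 1, 2 and 3 (-2.01 ± 0.21). AP-1 and immediate early genes were higher in 13 and lower in 2 of 23 (median 0.80). Fosl2, an AP-1 subunit, stood at 28.8, 36.2 and 28.6 CPM in basal 1, 2 and 3 and 121, 108 and 93.9 CPM in luminal 1, 2 and 3 (1.79 ± 0.17), and Ier3 was higher by 1.68 ± 0.19, while Egr2 was lower (-2.08 ± 0.39).

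Genes of death were near the background in the share called, while genes of survival were more often higher. Of 8 survival genes 3 were higher (1 with the code series as a term, 5 in DESeq2), beside 12.8% of all genes. In 6 of them luminal lay above basal without overlap, beside 23.2% of all genes. Of 15 death genes 2 were higher and 2 lower. Bcl2l1, which encodes BCL-XL, stood at 69.4, 54.999 and 75.4 CPM in basal 1, 2 and 3 and 200.3, 274 and 271 CPM in luminal 1, 2 and 3 (1.90 ± 0.20). Bik, a death-promoting member of the BCL2 family, was also higher, at 6.04, 8.87 and 6.32 CPM in basal 1, 2 and 3 and 68.2, 90.1 and 57.4 CPM in luminal 1, 2 and 3 (3.34 ± 0.26), and Bok, of the same family, was lower, at 60.4, 74.6 and 75.5 CPM in basal 1, 2 and 3 and 3.45, 4.27 and 4.54 CPM in luminal 1, 2 and 3 (-4.10 ± 0.24). Genes of the circadian clock were higher in 6 and lower in 2 of 19, and none was lower with the code series as a term, with the replicate block, or without basal 2, luminal 1 or luminal 2. Nfil3, a transcription repressor of the clock, stood at 13.2, 9.53 and 15.8 CPM in basal 1, 2 and 3 and 49.9, 66.9 and 51.2 CPM in luminal 1, 2 and 3 (2.12 ± 0.24). Cilium genes were higher in 1 and lower in 3 of 26, a share below that of all genes, and 1 was lower with the code series as a term against 5 in DESeq2. Ift80, of the transport complex inside cilia, stood at 23.9, 24.5 and 20.2 CPM in basal 1, 2 and 3 and 8.15, 8.84 and 7.84 CPM in luminal 1, 2 and 3 (-1.47 ± 0.22). Squamous differentiation genes were higher in 9 and lower in 4 of 25. Sbsn, suprabasin, stood at 7.35, 6.56 and 8.62 CPM in basal 1, 2 and 3 and 40.4, 53.7 and 43.1 CPM in luminal 1, 2 and 3 (2.61 ± 0.23), and Calml3, a calmodulin-like protein of keratinocytes, at 9.33, 15.5 and 12.5 CPM in basal 1, 2 and 3 and 0, 0.297 and 0.187 CPM in luminal 1, 2 and 3 (-6.24 ± 0.76). Of imprinted genes 1 was higher and 3 lower of 14. Grb10, an adaptor that restrains insulin signals, was higher by 2.09 ± 0.31, and Mest, with 23.1% of exon bases shared, lower, differing by -5.18 ± 0.39. The table lists 38 Hox genes, of which 3 had enough counts to be tested and none was called by edgeR, DESeq2 or limma-voom, or at an unadjusted p under 0.05.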

How the data were processed

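Raw counts per gene name were deposited by the authors as 1 table for the whole series. The tools named in the submitters' processing notes are Trim Galore, Subread and featureCounts 2.0.1, with mm39 as the genome. Per the file headers, read pairs were counted over exons and grouped by gene name, with strand unused although the libraries were stranded. The annotation release is not given here. Overlapping and antisense genes can therefore exchange reads, and genes with near-identical copies can lose them. Positions and shared exon bases came from the table itself.

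All 9 libraries were fitted with edgeR 4.0.16 in R 4.3.3, with filterByExpr, TMM scaling, the 3 groups as a factor (6 residual degrees of freedom), the robust quasi-likelihood test, two-sided, and Benjamini-Hochberg adjustment over 18051 genes at 0.05. Standard errors were taken from the test statistic. CPM carry no pseudocount. The 17 alternatives used DESeq2 1.42.0, limma 3.58.1, other scalings and filters, a test against a 1.5-fold change, the 6 libraries alone, the title number as a block, the code series as a term (4 residual degrees of freedom), and each of the 6 libraries left out. On counts simulated for this comparison over 18051 genes, 17% of the 2-fold and 57% of the 4-fold changes were found, and 2.63% of the calls were false.

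The comparison, its 42 gene lists with 1312 genes (1303 measured, 1188 tested) and the rule for named genes were chosen with earlier results of these data known. The rule took up to 3 called genes per list, role and direction with at least 5 CPM in the higher group, the most abundant member, 12 genes per direction with the largest differences at 20 CPM or more and no overlap, 8 per group at 0 counts in the other, the 12 most abundant per group and a fixed set. Not every gene the rule took is described. Mucl1, Scgb2b26 and the single marker genes of other cell types were chosen after their values were seen. Promoter sequences are RefSeq's, on GRCm38.p6. The replication, cholesterol and lysosome lists matched under 80% of their genes there, so no motif share is given for them. Replicate numbers are those of the titles. Same-numbered luminal and basal libraries were at r = 0.002, 0.201 and 0.116 in their deviations from the group means, so the numbers were not taken to pair them.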

Additional observations from a re-analysis of the deposited data

How the results depend on the processing

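With the code series as a term 2507 genes were called, 1280 higher and 1227 lower, and 99.9% of the 4899 genes called in the pooled fit kept their sign there. In the test against a 1.5-fold change 2885 genes passed, 1257 higher and 1628 lower. Leaving out each of the 6 libraries in turn gave 3678 to 4619 calls, 1642 to 2268 higher and 1907 to 2351 lower. The other alternatives kept all 3 counts within 1.5 times, and no gene was called in opposite directions in any of them.

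The title numbers gave no pairing, and the best match of a library bore its own number in 4 of 9 cases. With that number as a replicate block 4548 genes were called, 2154 higher and 2394 lower.

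Of the genes named, 3 took the other sign in an alternative. Foxa1 moved to -0.42 with the code series as a term and ranged from -0.0098 to 0.39 when 1 library was left out. Cdkn1a ranged from -0.019 to 0.47 and Hbb-bs from -8.72 to 1.91 in the same way. The cause was not tested. Counted over whole lists, those of ion and water transport, ribosomal protein, interferon and MHC class I, and circadian clock genes moved by over 1.5 times in the most settings. At this depth 3 counts in a library correspond to 0.152 to 0.187 CPM, and differences below that level were not detectable.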
